A study of Homo sapiens with 12 samples.

Results

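Small nucleolar RNA (snoRNA) host transcripts were followed in 2 cell lines of human acute myeloid leukemia, MOLM13 and OCIAML5. MOLM13 carries a KMT2A fusion and an internal tandem duplication of FLT3, and OCIAML5 grows in the presence of human GM-CSF, which was in its medium. The host transcripts were all genes of the count tables named SNHG and a number (small nucleolar RNA host gene), with GAS5, ZFAS1 and EPB41L4A-AS1, which gave 31 of 60648 genes. The 12 libraries formed 6 groups of 2 libraries: a control hairpin (shCTL) and a hairpin against PSPC1 (shPSPC1) in MOLM13, the same pair in OCIAML5, and, in a separate experiment with its own shCTL libraries, a control and a PU.1 hairpin (shPU.1) in OCIAML5. PSPC1 is an RNA-binding protein of nuclear paraspeckles, and PU.1, the product of SPI1, is a transcription factor of myeloid cells. All groups, the controls included, had received lentivirus and had been selected with puromycin or sorted for GFP, and the labels do not say which was used for a library, how many hairpin sequences stand behind a group, or whether both libraries of one group are separate cultures. The p-values therefore rest on the spread between the sequenced libraries, and that spread may be technical.

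A snoRNA host gene is transcribed by RNA polymerase II, and its snoRNAs are cut out of the introns once the transcript is spliced. C/D box snoRNAs guide 2′-O-methylation and H/ACA box snoRNAs guide pseudouridylation, mostly of ribosomal RNA, while their relatives in Cajal bodies, the scaRNAs, guide modification of the spliceosomal RNAs. What is left after splicing is an exonic RNA with no long reading frame, and many of these RNAs are removed by nonsense-mediated decay when ribosomes translate them. Many host transcripts also begin with a C followed by a run of pyrimidines, the terminal oligopyrimidine (TOP) start of ribosomal protein messages, whose translation and stability follow growth signals through mTOR and the binding protein LARP1. GAS5, for growth arrest-specific, was named for the rise of this exonic RNA in cells that stop growing. The libraries were made from messenger RNA, so they report the host RNA and hardly the mature snoRNAs. Counts per gene do not tell spliced host RNA from forms that keep an intron.

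Of the 31 host transcripts, 26 passed the filter on low counts in the PSPC1 table and 27 in the PU.1 table. SNHG18 and SNHG28 had no count in any library. Those with a mean of at least 5 CPM (normalised read count, scaled to a common library size) in some group numbered 22 and are described by name. SNHG9, SNHG21, SNHG22, SNHG25, SNHG27, SNHG30 and SNHG31 stayed below that level. RefSeq places at least 1 snoRNA or scaRNA inside 29 of the 31 genes and 147 in all, of which 83 lie in SNHG14, the long imprinted transcript of chromosome 15 that runs antisense to UBE3A. GAS5 holds 11, SNHG1 holds 8, and SNHG12 and SNHG17 hold 4 each.

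The annotated 5′ ends show which host transcripts carry a pyrimidine start. In GENCODE release 29 on GRCh38, 39 of the 292 transcripts of the host genes (13.4%) begin with C and at least 4 further pyrimidines, against 4979 of 206694 transcripts of all genes (2.41%), 2.5% of the transcripts of long noncoding genes and 21.1% of those of ribosomal protein genes that host snoRNAs. The starts below are the first bases of 1 annotated transcript of each gene, read 5′ to 3′ on the strand of the gene, with the pyrimidine run in capitals. They are shown because these RNAs are described by their levels below. Each was chosen for its pyrimidine run, so likeness within the run follows from that choice. SNHG1, SNHG6 and SNHG11 also have such a start, which is not shown.
GAS5: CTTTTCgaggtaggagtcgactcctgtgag
SNHG16: CTTTTCgaggtcggccgcgtggctggaaga
SNHG19: CTTTTCggggtcgagtccgagggggaagag
SNHG29: CTTTTCattcccgttgttatggagggccac
SNHG5: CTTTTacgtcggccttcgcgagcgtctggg
ZFAS1: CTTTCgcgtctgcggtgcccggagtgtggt
SNHG8: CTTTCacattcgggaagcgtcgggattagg
SNHG3: CCTTTTTggagacagattcgcagtggtcgc
SNHG4: CCTTTCCCCTCCggcctctgccggtgctgc
SNHG12: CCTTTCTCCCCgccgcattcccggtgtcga

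The first 11 bases are identical in GAS5 and SNHG16, and the first 6 are shared by GAS5, SNHG16, SNHG19 and SNHG29. Only some of the annotated transcripts of a gene have such a start: 6 of 29 for GAS5, 2 of 8 for SNHG16, 6 of 30 for SNHG29, and 1 of 25 for SNHG1. Of the 22 named host transcripts, 13 have at least 1 annotated pyrimidine start, and the other 9 (EPB41L4A-AS1, SNHG7, SNHG10, SNHG14, SNHG15, SNHG17, SNHG20, SNHG26 and SNHG32) have none in this annotation. The RefSeq promoter table of GRCh38.p14 held 27 of the genes, and its starts place the genes differently. A C followed by at least 4 C or T, beginning between 5 bases before the RefSeq start and base 6 of the transcript, was found on the gene's strand for 12 of the 27 (44.4%), against 21.1% of 35116 promoters. SNHG7, SNHG17 and SNHG32 were among the 12, whereas GAS5, SNHG1, SNHG3, SNHG11 and SNHG29 were not. The E-box CACGTG, which reads the same on both strands, occurred between 250 bases before and 50 bases after the start in 2 of these 27 (7.41%), SNHG7 and SNHG30, against 7.26% of all promoters.

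Each library held between 15.4 and 39.7 M counts. The targeted genes were low in the libraries labelled as knockdowns: PSPC1 measured 27.1 and 27.7 CPM in MOLM13 (controls 130 and 135) and 18.9 and 19.2 CPM in OCIAML5 (controls 99.1 and 98.8), and SPI1 measured 47.5 and 46.2 CPM (controls 227 and 204). PU.1 knockdown also lowered PSPC1, to 59.8 and 58.2 CPM (controls 106 and 113). Of 12 myeloid markers, 9 exceeded 1 CPM in every library; the sum over all 12 was 1430 to 1450 CPM in MOLM13 controls and 1410 to 1420 CPM after PSPC1 knockdown, 813 to 818 and 579 to 599 CPM in OCIAML5, and 685 to 731 and 458 to 460 CPM in the PU.1 experiment. CD68 and ANPEP were at or near 0 throughout. The sum of 8 T and NK lymphocyte markers, mostly TRAC and NKG7, was 68 to 70.2 CPM in MOLM13 controls and 20.9 to 22 CPM after knockdown, 3.05 to 3.35 and 1.88 to 2.11 CPM in OCIAML5, and 2.33 to 2.98 and 12 to 13.9 CPM in the PU.1 experiment, with CD3E and CD3G near 0. The sum of 5 B lymphocyte markers was 3.15 to 4.3 CPM in MOLM13 controls and 2.87 to 3.29 CPM after knockdown, 22.8 to 24.6 and 12.7 to 13.7 CPM in OCIAML5, mostly PAX5, and 5.79 to 6.05 and 1.2 to 1.23 CPM in the PU.1 experiment, with MS4A1 at 0 in every library. The share of mitochondrially encoded counts was 9.32% and 9.86% in MOLM13 controls and 12.4% in both knockdown libraries, 12% and 10.8% against 14.3% in both in OCIAML5, and 9.95% and 10% against 10.6% and 9.84% in the PU.1 experiment. The part of these shifts in the results below was not tested, and in such bulk libraries fewer cells of a type and less RNA per cell cannot be told apart.

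Summed over the 31 genes, the host transcripts made up 1930 and 1940 CPM in MOLM13 control libraries, against 2090 and 2080 CPM with the PSPC1 knockdown. In OCIAML5 the sum was 1660 and 1750 CPM in control libraries, against 1470 and 1510 CPM with the PSPC1 knockdown. In the PU.1 experiment it was 1770 and 1730 CPM in control libraries, against 1740 and 1760 CPM with the PU.1 knockdown, so there the groups overlapped. SNHG29, GAS5 and SNHG14 supplied much of each sum, and the sum of the other 28 genes was lower in both knockdown libraries than in both controls in all 3 knockdowns. It went from 929 and 939 CPM to 811 and 810 CPM in MOLM13, in OCIAML5 from 930 and 972 CPM to 726 and 738 CPM, and from 1030 and 1010 CPM to 808 and 812 CPM in the PU.1 experiment. SNHG14 and SNHG29, left out here, are the 2 called higher in all 3 knockdowns. GAS5, also left out, fell after PSPC1 knockdown in both lines. After PU.1 knockdown GAS5 too was called higher, at 230 and 229 CPM against 248 and 252 CPM. The sum over all 31 genes did not fall in MOLM13 or in the PU.1 experiment. The fall of the other 28 there therefore depends on which genes were left out. In PU.1 controls SNHG14 was at 101 and 102 CPM, below SNHG5 at 126 and 123 CPM.

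Levels of different genes were compared per kilobase of annotated exon. This length is the union of the exons of all annotated transcripts of a gene. For SNHG1 it covers 3756 of the 3927 bases of the gene, and for SNHG6 it covers 1247 of 4715. The order below therefore depends on this annotation as well as on the counts. The MOLM13 controls had SNHG6 first, at 155 and 147 CPM per kilobase, above SNHG29 at 132 and 127. GAS5 followed at 67.6 and 69.2, SNHG8 at 53.6 and 54.6 and SNHG1 at 24.5 and 25.6 CPM per kilobase. In the OCIAML5 controls of the PSPC1 experiment the order began with SNHG29 at 95.4 and 107 CPM per kilobase, then SNHG6 at 83.7 and 83.1, GAS5 at 62.2 and 67.1 and SNHG8 at 51.1 and 55.8. SNHG20 stood lowest of the named genes in both lines, at 1.35 and 1.28 CPM per kilobase in MOLM13 and 1.77 and 2.11 in OCIAML5. SNHG14, below SNHG29 alone by CPM in MOLM13, was far down the order per kilobase, at 6.08 and 6.25 CPM per kilobase, because its annotated exons sum to 43324 bases.

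**Figure D1:**
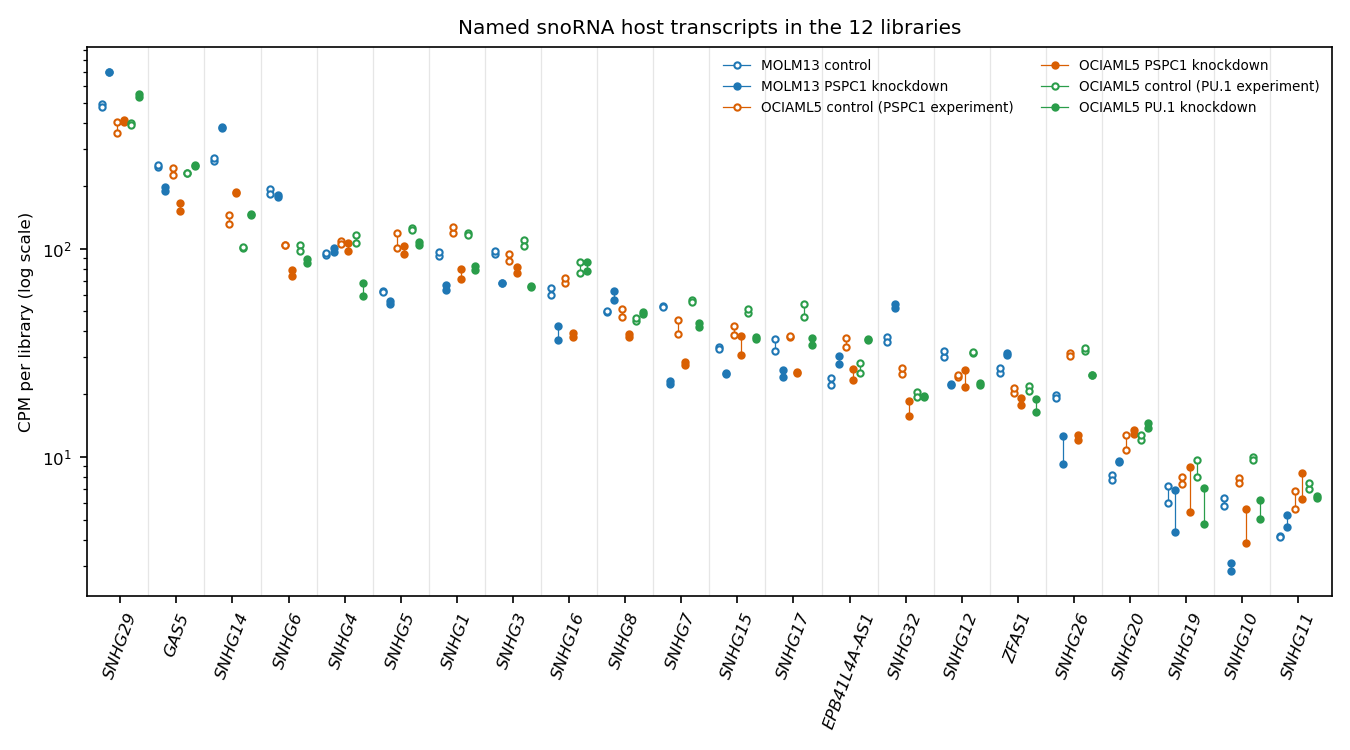
CPM of the 22 named host transcripts (log scale) in each of the 12 libraries; open points are control libraries, filled points knockdown libraries, and a line joins the 2 libraries of a group. SNHG29 stands highest in every group, though levels of different genes are not per length here, and SNHG7, SNHG26 and SNHG1 show filled points below the open points of the same color in all 3 experiments.

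After PSPC1 knockdown in MOLM13, most host transcripts that changed fell, but the 2 with the highest CPM, SNHG29 and SNHG14, rose. By edgeR's quasi-likelihood test with Benjamini-Hochberg adjustment over 16457 genes, at an adjusted p of at most 0.05, 18 of the 26 tested passed (57% of all genes tested did). Of the 26, 12 fell (46.2%, against 29.5% of all genes tested) and 6 rose (23.1%, against 27.6%). The median log2 fold change of the 26 was -0.20, against 0.006 over all genes tested. SNHG7, on chromosome 9 (136721366 to 136728184, GRCh38), which hosts SNORA17A and SNORA17B, measured 53 and 52.6 CPM in control libraries, against 22.5 and 23.1 CPM with the knockdown. Its libraries did not overlap, and the log2 fold change was -1.21 ± 0.094 (SE; adjusted p = 7.5e-16).

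SNHG26 (chromosome 7, 22854178 to 22861579), the host of SNORD93, measured 19.8 and 19.2 CPM in MOLM13 control libraries, against 9.23 and 12.6 CPM with the knockdown (log2 fold change -0.83 ± 0.14, adjusted p = 1.2e-06). SNHG10 (chromosome 14, 95532297 to 95534872), the host of SCARNA13, stood at 5.8 and 6.33 CPM against 2.83 and 3.11 CPM (-1.02 ± 0.25, adjusted p = 0.00047). SNHG16 (chromosome 17, 76557766 to 76565348), which hosts SNORD1A, SNORD1B and SNORD1C, stood at 59.8 and 64.5 CPM against 42.7 and 36.2 CPM (-0.66 ± 0.082, adjusted p = 1.2e-09). All 3 were lower in both knockdown libraries than in both controls. SNHG1, SNHG3, SNHG12, SNHG15 and SNHG17 also fell, by log2 fold changes between -0.54 and -0.41, and so did SNHG30, at 2.79 and 4.66 CPM against 2.11 and 1.7 CPM (-0.95, adjusted p = 0.01), a call lost without the second control library (adjusted p = 0.22) or the second knockdown library (0.087). GAS5 (chromosome 1, 173863900 to 173868882) fell from 245 and 251 CPM to 198 and 188 CPM (-0.36 ± 0.05, adjusted p = 1.2e-08).

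The host transcripts that rose in MOLM13 were SNHG29, SNHG14, SNHG32, EPB41L4A-AS1, ZFAS1 and SNHG8. SNHG29 (chromosome 17, 16438822 to 16478678), which hosts SNORD49A, SNORD49B and SNORD65, measured 496 and 477 CPM in control libraries, against 700 and 703 CPM with the knockdown (0.53 ± 0.044, adjusted p = 5.2e-15). SNHG14 (chromosome 15, 24978583 to 25419462) stood at 264 and 271 CPM against 378 and 384 CPM (0.51 ± 0.046, adjusted p = 8.4e-14), and SNHG32 (chromosome 6, 31834608 to 31839766), which hosts SNORD48 and SNORD52, at 37.5 and 35.7 CPM against 54 and 51.6 CPM (0.53 ± 0.092, adjusted p = 2.7e-06). None of these groups overlapped. The changes of SNHG8 (0.25 ± 0.079, adjusted p = 0.0055), EPB41L4A-AS1 (0.33 ± 0.11, adjusted p = 0.0068) and ZFAS1 (0.27 ± 0.11, adjusted p = 0.03) and the fall of SNHG5 (-0.18 ± 0.073, adjusted p = 0.034) were small. Each of these 4 calls was lost without single libraries: SNHG8 without the first control (adjusted p = 0.058) or the first knockdown library (0.14), EPB41L4A-AS1 without the second control (0.082) or the second knockdown library (0.11), and ZFAS1 and SNHG5 without any of the 4 libraries in turn (0.069 to 0.2 and 0.051 to 0.12). SNHG4, SNHG6, SNHG11, SNHG19 and SNHG20 did not pass, with log2 fold changes between -0.22 and 0.25.

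After PSPC1 knockdown in OCIAML5, SNHG26, SNHG16 and SNHG1 were among those that fell, and SNHG14 again rose. Of 26 host transcripts tested, 16 passed (56% of all genes tested did): 14 fell (53.8%, against 28.4% of all genes tested) and 2 rose (7.69%, against 27.5%). The median log2 fold change was -0.22, against 0.017 over all genes tested. SNHG26 measured 31.4 and 30.5 CPM in control libraries, against 12 and 12.7 CPM with the knockdown. With no overlap between the groups, its log2 fold change was -1.33 ± 0.13 (adjusted p = 1.2e-12), the lowest of the named host transcripts in this comparison. SNHG16 stood at 68 and 72 CPM against 37.6 and 39.2 CPM (-0.87 ± 0.08, adjusted p = 1.6e-13). SNHG1 (chromosome 11, 62851988 to 62855914), whose introns hold SNORD22 and SNORD25 to SNORD31, stood at 119 and 127 CPM against 71.1 and 79.9 CPM (-0.70 ± 0.063, adjusted p = 7.6e-14). In both, every knockdown library lay below every control library.

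GAS5 fell in this line too, from 226 and 244 CPM to 152 and 166 CPM (-0.57 ± 0.05, adjusted p = 4.9e-14). SNHG6, the host of SNORD87, which had not passed in MOLM13 at 177 and 180 CPM against 193 and 183 CPM in controls, fell here from 104 and 104 CPM to 78.7 and 73.7 CPM (-0.45 ± 0.056, adjusted p = 1.6e-09). SNHG7, SNHG10, SNHG17, SNHG32, SNHG8 and EPB41L4A-AS1 fell by log2 fold changes between -0.72 and -0.37. The smaller falls of SNHG3 (-0.20), SNHG15 (-0.25) and SNHG5 (-0.16) lost their call without single libraries. These were the first control or the first knockdown library for SNHG3 (adjusted p = 0.1 and 0.098), and the second control or the first knockdown library for SNHG15 (0.18 and 0.52) and for SNHG5 (0.65 and 0.34), whose groups overlapped. SNHG10 lost it too, at 7.94 and 7.52 CPM against 3.88 and 5.61 CPM, without the first knockdown library (-0.47, adjusted p = 0.17). SNHG14 rose from 145 and 131 CPM to 184 and 187 CPM (0.42 ± 0.049, adjusted p = 2.1e-10). SNHG29 stood at 359 and 403 CPM against 404 and 415 CPM, 0.10 ± 0.044 (adjusted p = 0.043), and this call was lost without the first control library (0.015, adjusted p = 0.8) and without either knockdown library (adjusted p = 0.066 and 0.24).

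**Figure D2:**
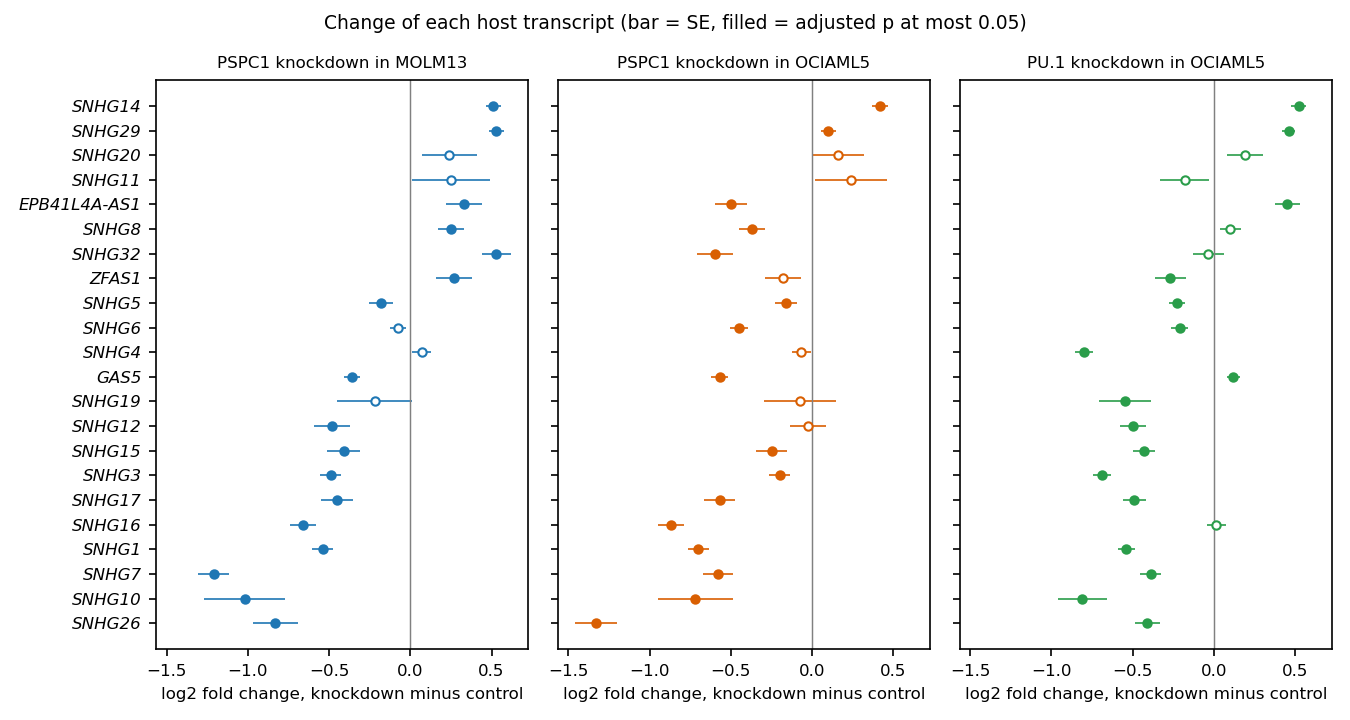
Log2 fold change of the 22 named host transcripts, knockdown minus control, in the 3 knockdowns (points; bars are 1 SE; filled points have an adjusted p of at most 0.05). SNHG14 and SNHG29 stand right of 0 and SNHG1, SNHG7, SNHG10, SNHG17 and SNHG26 left of 0 in every panel, whereas EPB41L4A-AS1, SNHG8 and SNHG32 change side between the panels of the lines.

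After PU.1 knockdown in OCIAML5, SNHG10, SNHG4, SNHG3 and SNHG1 were among the host transcripts that fell, and SNHG14 and SNHG29 rose. Of 27 tested, 18 passed (60.4% of all genes tested did). Of the 27, 14 fell (51.9%, against 30.9% of all genes tested) and 4 rose (14.8%, against 29.6%). Scaled by library size alone, with no correction for composition, the split was 10 lower and 7 higher host transcripts, and 3995 lower and 6583 higher genes instead of 5206 and 4983. That scaling moved the median of all genes by 0.15 on the log2 scale. With the correction, the median log2 fold change of the host transcripts was -0.28, against 0.02 over all genes tested. SNHG4 (chromosome 5, 139274102 to 139284899), the host of SNORA74A and SNORA74D, measured 106 and 116 CPM in control libraries, against 68.3 and 59.2 CPM with the knockdown. The groups did not overlap, and the log2 fold change was -0.80 ± 0.057 (adjusted p = 2.9e-20). SNHG3 (chromosome 1, 28505980 to 28510892), which hosts the U17 snoRNAs SNORA73A and SNORA73B, stood at 110 and 103 CPM against 66.4 and 65 CPM (-0.69 ± 0.054, adjusted p = 2.7e-18).

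SNHG10 measured 9.98 and 9.65 CPM in PU.1 control libraries, against 6.24 and 5.02 CPM with the knockdown (-0.81 ± 0.15, adjusted p = 2.1e-06), and SNHG1 measured 119 and 116 CPM against 78.5 and 82.8 CPM (-0.54 ± 0.052, adjusted p = 9.9e-15). SNHG7, SNHG12, SNHG15, SNHG17 and SNHG26 fell by log2 fold changes between -0.50 and -0.39. Falls that depended on the scaling were those of SNHG5, SNHG6 and ZFAS1, which by library size alone were at -0.077, -0.058 and -0.12 with no call, and that of the scarce SNHG31. ZFAS1 also lost it without the second knockdown library (adjusted p = 0.25). SNHG19, a short gene that hosts SNORD60, stood at 9.63 and 7.98 CPM against 4.75 and 7.09 CPM (-0.55 ± 0.16, adjusted p = 0.0017) and lost its call without the first knockdown library (adjusted p = 0.12). Of the genes under 5 CPM, SNHG31 passed, at 0.697 and 1.09 CPM against 0.326 and 0.446 CPM (-1.19, adjusted p = 0.038). It lost the call by library size alone (adjusted p = 0.067), with DESeq2 (0.16), without the second control library (0.35) and without either knockdown library (0.18 and 0.07), and a filter of at least 1 CPM in 2 libraries left it untested.

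The 4 host transcripts that rose were SNHG29, SNHG14, EPB41L4A-AS1 and GAS5. SNHG29 rose from 401 and 391 CPM to 536 and 553 CPM (0.46 ± 0.039, adjusted p = 6.8e-17) and SNHG14 from 101 and 102 CPM to 145 and 147 CPM (0.52 ± 0.048, adjusted p = 2.6e-15). EPB41L4A-AS1 (chromosome 5, 112160526 to 112164276), which hosts SNORA13, rose from 25.2 and 28.1 CPM to 36.2 and 36.9 CPM (0.45 ± 0.077, adjusted p = 5.4e-07). GAS5 was at 230 and 229 CPM in control libraries, against 248 and 252 CPM with the knockdown (0.12 ± 0.042, adjusted p = 0.008), a change that DESeq2 did not call (adjusted p = 0.056). It also lost the call without either knockdown library (adjusted p = 0.063 and 0.13).

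Set side by side, 8 host transcripts fell in all 3 knockdowns, namely SNHG1, SNHG3, SNHG5, SNHG7, SNHG10, SNHG15, SNHG17 and SNHG26, and 2 rose in all 3, SNHG14 and SNHG29. These are 30.8% and 7.69% of the 26 host transcripts tested in all 3, against 14.4% (lower) and 9.61% (higher) of the 15396 genes tested in all 3. The calls of SNHG1, SNHG7, SNHG17, SNHG26 and SNHG14 held in all 3 knockdowns under every alternative run, which were 12 for each PSPC1 knockdown and 11 for the PU.1 knockdown. SNHG17 (chromosome 20, 38420588 to 38435353), which hosts SNORA71A to SNORA71D, was at 32.3 and 36.6 CPM against 26.1 and 24.1 CPM in MOLM13. In OCIAML5 it was at 37.6 and 38 CPM against 25.6 and 25.2 CPM after PSPC1 knockdown, and at 54.1 and 46.8 CPM against 37.2 and 34.4 CPM after PU.1 knockdown, so its groups were apart each time. The 3 knockdowns have no control library in common. Across the 26 host transcripts tested in both, the log2 fold changes of the PSPC1 knockdown in MOLM13 and OCIAML5 had a Pearson correlation of 0.46 (Spearman 0.49), those of PSPC1 and PU.1 knockdown in OCIAML5 one of 0.26 (0.23), and those of PSPC1 knockdown in MOLM13 and PU.1 knockdown in OCIAML5 one of 0.56 (0.52). These values describe 26 genes, which are not independent replicates. Among the 26 are SNHG9, SNHG21, SNHG30 and SNHG31, all under 5 CPM. After PSPC1 knockdown in OCIAML5 the changes ran from -1.35 to 1.47, and both ends came from genes under 5 CPM. The correlations were not computed without these genes.

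MYC, whose product drives ribosome production, responded differently to the knockdowns in OCIAML5, by 1.57 ± 0.06 for the PU.1 effect minus the PSPC1 effect (adjusted p = 5.1e-26). It stood at 602 and 599 CPM against 157 and 150 CPM after PSPC1 knockdown in MOLM13, and at 581 and 582 CPM against 189 and 196 CPM in OCIAML5. In the PU.1 experiment it stood at 665 and 636 CPM against 630 and 634 CPM (adjusted p = 0.36). The part of MYC in the changes of the host transcripts was not tested.

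The effect of PSPC1 knockdown differed between the lines for 12 of the 26 host transcripts tested (30.5% of all genes tested): for 4 it was higher in OCIAML5 than in MOLM13 (18% of all genes tested) and for 8 it was lower (12.5% of all genes tested). Opposite calls were made for 3 of them, and the MOLM13 calls of EPB41L4A-AS1 and SNHG8 among these depended on single libraries. The same count over all genes was not made. SNHG32 rose in MOLM13 but in OCIAML5 fell from 25.1 and 26.7 CPM to 15.8 and 18.6 CPM, and its effects differed by -1.12 ± 0.14 (adjusted p = 5.9e-09). In the MOLM13 libraries EPB41L4A-AS1 went from 23.9 and 22.2 CPM to 27.8 and 30.4 CPM, and it went from 33.8 and 37.2 CPM to 26.5 and 23.4 CPM in OCIAML5, a difference of -0.84 ± 0.15 (adjusted p = 1.1e-05). SNHG8 (chromosome 4, 118278709 to 118279823), the host of SNORA24, went from 49.5 and 50.4 CPM to 62.3 and 56.6 CPM and from 47.1 and 51.5 CPM to 37.5 and 38.9 CPM, a difference of -0.62 ± 0.11 (adjusted p = 1.8e-05). Its levels in the controls of the lines overlapped.

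SNHG7 differed in size and not in direction: in OCIAML5 it went from 38.9 and 45.5 CPM to 28.4 and 27.7 CPM, and the fall was deeper in MOLM13 by 0.63 ± 0.13 (adjusted p = 0.00017). SNHG29 rose more in MOLM13 (difference -0.42 ± 0.062, adjusted p = 2.7e-07), and SNHG6 was lower in OCIAML5 relative to MOLM13 by -0.37 ± 0.076 (adjusted p = 0.00012). For SNHG12, at 30.3 and 32.1 CPM against 22.5 and 22.2 CPM in MOLM13 and 24.1 and 24.8 CPM against 26.2 and 21.6 CPM in OCIAML5, the difference was 0.45 ± 0.16 (adjusted p = 0.021). The differences of SNHG12, SNHG3 (0.28), GAS5 (-0.20), SNHG26 (-0.50) and ZFAS1 (-0.45) were each lost when any of several single libraries was left out, and that of SNHG26 was -0.24 without the second MOLM13 knockdown library (adjusted p = 0.47).

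**Figure D3:**
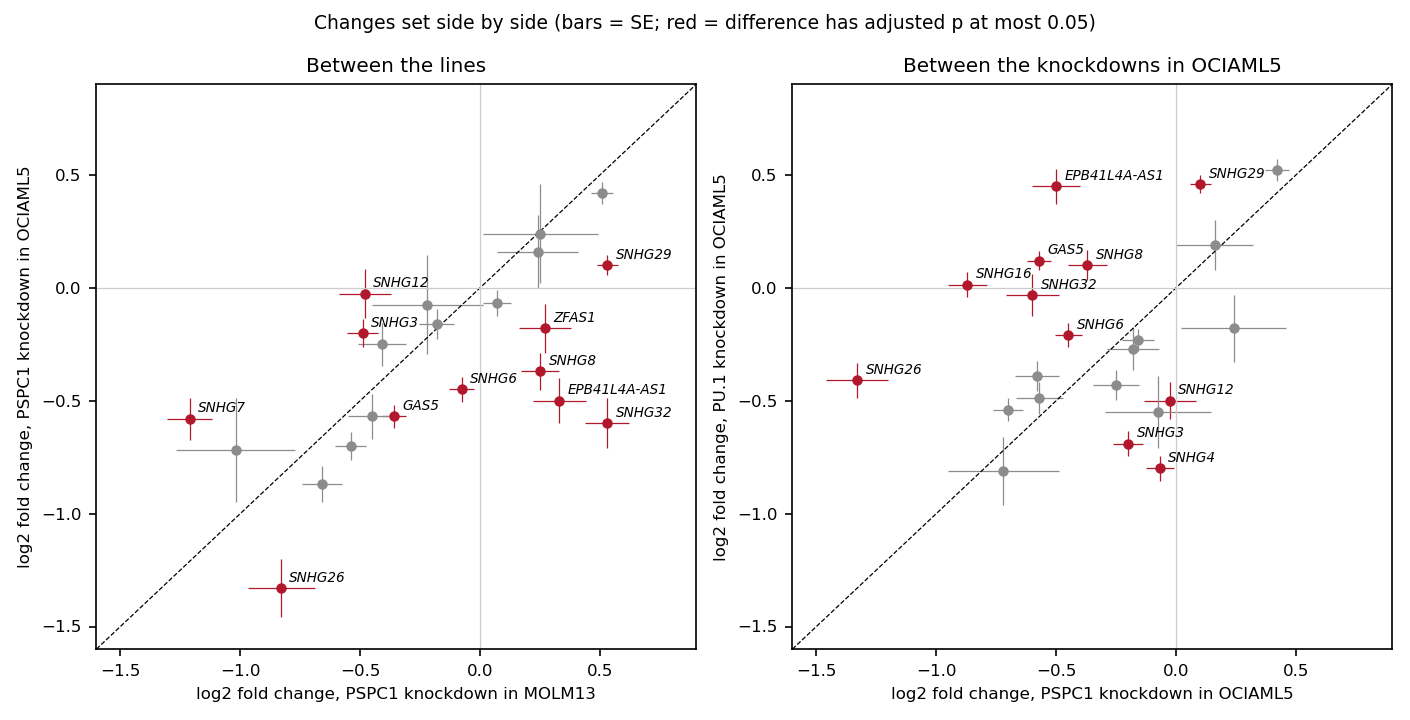
Log2 fold changes of the 22 named host transcripts after PSPC1 knockdown, MOLM13 against OCIAML5 (left), and in OCIAML5 after PSPC1 against PU.1 knockdown (right); bars are 1 SE and the dashed line marks equal change. Red, named points are host transcripts whose 2 effects differed at an adjusted p of at most 0.05, such as SNHG32 (-1.12) at left and SNHG16 (0.90) and SNHG4 (-0.72) at right.

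In OCIAML5 the PU.1 and PSPC1 effects differed for 11 of 27 host transcripts tested (45.6% of all genes tested). The PU.1 effect was higher for 8 (22.8% of all genes tested) and lower for 3 (22.9% of all genes tested), each effect taken against the controls of its own experiment. The median difference over the 27 was 0.092 on the log2 scale, against 0.00098 over all genes tested. EPB41L4A-AS1 had the highest difference among the named ones, 0.97 ± 0.13 (adjusted p = 1.2e-08): it fell after PSPC1 knockdown and rose after PU.1 knockdown. SNHG26 fell in both but by less after PU.1 knockdown, at 32.3 and 33.3 CPM against 24.7 and 24.7 CPM (difference 0.94 ± 0.13, adjusted p = 1.1e-07). SNHG16 was at 86.6 and 76.4 CPM in PU.1 control libraries, against 78.2 and 86 CPM with the PU.1 knockdown. These overlap, and the difference from the PSPC1 effect was 0.90 ± 0.098 (adjusted p = 1e-10). GAS5 differed by 0.71 ± 0.069 (adjusted p = 4.2e-12), SNHG32 by 0.58, SNHG8 by 0.48, SNHG29 by 0.37 and SNHG6 by 0.25, the last lost without the second PU.1 control library (adjusted p = 0.058) or the second PSPC1-knockdown library (adjusted p = 0.067). GAS5 and SNHG16, a pair singled out after its values were seen, whose first 11 bases are the same, both fell after PSPC1 knockdown in OCIAML5, and neither fell after PU.1 knockdown. The same held for EPB41L4A-AS1, SNHG8 and SNHG32, which do not share these bases. SNHG29 and SNHG19 share the first 6 bases with the pair. In OCIAML5, SNHG29 was called higher after both knockdowns, and SNHG19 was called lower after PU.1 knockdown alone. A link to the start was not tested.

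The 3 with a lower PU.1 effect were SNHG4, SNHG3 and SNHG12. SNHG4 was at 109 and 105 CPM in control libraries, against 106 and 97.6 CPM with the PSPC1 knockdown in OCIAML5, with overlapping groups, and the difference between the effects was -0.72 ± 0.088 (adjusted p = 2.3e-09). SNHG3 differed by -0.47 ± 0.084 (adjusted p = 7.6e-06). SNHG12 differed by -0.46 ± 0.14 (adjusted p = 0.0051), a call lost without the first PSPC1-knockdown library (-0.29, adjusted p = 0.14).

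Without knockdown, the lines already differed in 16 host transcripts of 26 (60.6% of all genes tested): 7 were higher in MOLM13 (30% of all genes tested) and 9 were lower (30.7% of all genes tested). SNHG14 was at 264 and 271 CPM in MOLM13 and at 145 and 131 CPM in OCIAML5, 0.95 ± 0.049 (adjusted p = 6.4e-23). SNHG6 was at 193 and 183 CPM against 104 and 104 CPM, 0.86 ± 0.053 (adjusted p = 9.7e-20). SNHG5 (chromosome 6, 85660950 to 85678748), the host of SNORD50A and SNORD50B, was lower in MOLM13, at 62.8 and 62 CPM against 101 and 119 CPM (-0.81 ± 0.069, adjusted p = 8e-15). SNHG26 and EPB41L4A-AS1 were also lower in MOLM13, by -0.66 and -0.62 on the log2 scale.

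Control libraries of OCIAML5 from the PU.1 experiment were set against those from the PSPC1 experiment on the joined scale of both tables. There 12 host transcripts of 27 differed (38.9% of all genes tested): 8 were higher in the PU.1 experiment (20% of all genes tested) and 4 were lower (18.9% of all genes tested), though both groups carry the same label. SNHG14 was at 100 and 101 CPM against 151 and 137 CPM, a log2 difference of -0.51 ± 0.052 (adjusted p = 3.1e-11), a size similar to its changes after knockdown (0.51, 0.42 and 0.52). EPB41L4A-AS1 differed by -0.48 and SNHG32 by -0.45, while SNHG7 and SNHG17 were higher by 0.34 each. Experiment, time and any other difference between these controls cannot be told apart. Levels are therefore compared with a knockdown only within an experiment.

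The named host transcripts were also split by features that the choice of genes did not use. Of the 13 with an annotated pyrimidine start, 6 fell and 3 rose after PSPC1 knockdown in MOLM13, 7 fell and 1 rose in OCIAML5, and 8 fell and 2 rose after PU.1 knockdown, with median log2 fold changes of -0.18, -0.18 and -0.23. For the 9 with none, the counts were 5 and 3, 7 and 1, and 5 and 2, with medians of -0.41, -0.57 and -0.39. Of all genes tested, 29.5% fell and 27.6% rose, 28.4% and 27.5%, and 30.9% and 29.6%, in the same order. By the RefSeq starts, which cover 20 of the named host transcripts, the medians were -0.20, -0.28 and -0.33 for the 10 with a run and -0.06, -0.35 and -0.03 for the 10 without, so the order of the medians turned in MOLM13 and after PU.1 knockdown. Among the 10 that host C/D snoRNAs alone the medians were -0.13, -0.32 and -0.22. Among the 8 that host H/ACA snoRNAs alone they were -0.17, -0.31 and -0.41. These splits were made after the changes were known and were not tested.

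Several host genes share sequence with a neighbour, and whether the counting used strand is not stated. Exons of 6 named host genes overlap a gene on the same strand (SNHG3, SNHG4, SNHG14, SNHG20, SNHG32 and ZFAS1), and those of 11 a gene on the other strand. SNHG3 shares exons on its own strand with RCC1, a regulator of the GTPase Ran. Whether reads of the shared exons were given to 1 of the genes or left uncounted is not stated. RCC1 went from 191 and 191 CPM to 60.6 and 59.7 CPM after PU.1 knockdown (-1.66 ± 0.05, adjusted p = 1.4e-40), and it fell by 0.29 and 0.67 on the log2 scale after PSPC1 knockdown in MOLM13 and OCIAML5. The count of SNHG4 is uncertain in the same way, since its exons overlap those of MATR3, a nuclear matrix protein, on the same strand and those of SIL1 on the other. After PU.1 knockdown MATR3 changed by -0.46 and SIL1 by 0.81. SNHG20 overlaps SEC14L1, and SNHG14 overlaps SNRPN on its own strand and UBE3A on the other. SNRPN was at 1.77 and 1.96 CPM against 3.05 and 3.12 CPM after PU.1 knockdown. UBE3A was at 111 and 111 CPM against 112 and 109 CPM in MOLM13 after PSPC1 knockdown (adjusted p = 0.98), where SNHG14 rose. In OCIAML5 UBE3A rose along with SNHG14, from 99 and 103 CPM to 148 and 144 CPM after PSPC1 knockdown (0.53 ± 0.054, adjusted p = 4.1e-12) and from 96.1 and 105 CPM to 112 and 107 CPM after PU.1 knockdown (0.12 ± 0.052, adjusted p = 0.047).

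Neighbours on the opposite strand gave further values, and not all moved with their host. ZBTB37, whose start is 800 bases from that of GAS5, rose by 0.17, 0.16 and 0.36 in the 3 knockdowns in turn. GAS5 fell in the PSPC1 knockdowns and was called higher after PU.1 knockdown. LRRC75A, whose exons overlap those of SNHG29, was not called in any (adjusted p = 0.84, 0.12 and 0.62), where SNHG29 was called higher. The start of SNHG1 lies 188 bases from that of SLC3A2, an amino acid transporter subunit on the opposite strand. SLC3A2 measured 41.7 and 42.6 CPM after PSPC1 knockdown in MOLM13 (controls 180 and 174) and 69.5 and 65.7 CPM in OCIAML5 (controls 188 and 212), log2 fold changes of -2.07 and -1.56. After PU.1 knockdown it measured 129 and 142 CPM (controls 148 and 147), at -0.12 (adjusted p = 0.022). SNHG1 was at -0.54, -0.70 and -0.54 in these comparisons. GLRX5, a mitochondrial iron-sulfur cluster protein whose exons overlap those of SNHG10 on the other strand, changed by -0.80, -0.60 and -0.82, where SNHG10 was at -1.02, -0.72 and -0.81. DIPK1B, whose exons overlap those of SNHG7 on the other strand, fell in all 3 (-0.94, -0.61 and -0.51, adjusted p = 0.0051, 0.013 and 0.00066), from 4.89 and 3.29 CPM to 3.23 and 1.17 CPM in MOLM13, in OCIAML5 from 12.1 and 12.9 CPM to 7.85 and 8.56 CPM, and from 11.3 and 10.2 CPM to 7.65 and 7.45 CPM after PU.1 knockdown. ZNFX1, whose start is 248 bases from that of ZFAS1, went by 0.40 and 0.57 after PSPC1 knockdown and by -0.22 after PU.1 knockdown, where ZFAS1 was at 0.27, -0.18 and -0.27.

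Genes that act on snoRNAs and their hosts were read from lists drawn up with earlier results of these data known, and were described by counts and medians. For comparison, 29.5%, 28.4% and 30.9% of all genes tested fell in the 3 knockdowns in turn, and 27.6%, 27.5% and 29.6% rose. The 8 snoRNP core proteins, which bind the snoRNAs and carry out the modification, all fell after PSPC1 knockdown in MOLM13 (median log2 fold change -0.78) and after PU.1 knockdown (-0.48), and 7 fell and 1 rose after PSPC1 knockdown in OCIAML5 (-0.61). FBL, the methyltransferase fibrillarin, went from 286 and 263 CPM to 139 and 136 CPM in MOLM13, in OCIAML5 from 226 and 245 CPM to 122 and 128 CPM, and from 288 and 276 CPM to 165 and 180 CPM after PU.1 knockdown. DKC1, the pseudouridine synthase dyskerin, fell by 1.07 in MOLM13 and by 0.92 in OCIAML5 on the log2 scale after PSPC1 knockdown. Of 17 assembly and transport factors, 13, 12 and 13 fell and 1, 1 and 2 rose in the 3 knockdowns in turn. Among them NOLC1, a nucleolar and Cajal body chaperone of snoRNPs, went from 359 and 376 CPM to 107 and 112 CPM in MOLM13.

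The coding genes that host snoRNAs moved in different ways. Ribosomal protein genes of this kind rose in 20 of 26 cases after PSPC1 knockdown in MOLM13, where none fell and the median was 0.26. RPS2 was at 3360 and 3200 CPM against 4440 and 4350 CPM there. In OCIAML5, 11 fell and 1 rose after PSPC1 knockdown (median -0.065), and 12 fell after PU.1 knockdown with none higher (-0.081). RPL13A, at 2120 and 2300 CPM against 1470 and 1490 CPM, was among those that fell after PSPC1 knockdown in OCIAML5. The 38 other coding hosts gave 22 lower and 7 higher, 22 and 8, and 24 and 7, with medians of -0.30, -0.23 and -0.31. NCL, nucleolin, went from 1870 and 1970 CPM to 932 and 951 CPM in MOLM13. TOP messages that host no snoRNA in these lists rose in 23 of 31 cases in MOLM13 and fell in 5, with counts of 8 and 11 in OCIAML5 after PSPC1 knockdown and 4 and 14 after PU.1 knockdown. Of the 13 noncoding hosts with an annotated pyrimidine start, 3 rose and 6 fell in MOLM13. The difference between these lists was not tested.

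Regulators of TOP messages fell in 11, 9 and 13 of 17 cases and rose in 3, 5 and 2. EIF4EBP1, the translation inhibitor 4E-BP1 downstream of mTOR, was at 230 and 235 CPM against 64.7 and 75.1 CPM in MOLM13, at 149 and 153 CPM against 44.9 and 48.1 CPM in OCIAML5, and at 112 and 102 CPM against 55.7 and 57.8 CPM after PU.1 knockdown. Among 22 nonsense-mediated decay factors, 11, 10 and 12 fell and 3, 7 and 5 rose. DCP2, a decapping enzyme, rose in OCIAML5 after both knockdowns (0.74 and 0.64). RNA polymerase I and early ribosome assembly genes fell in 22, 20 and 19 of 24 cases and rose in 1, 0 and 0. This list shares NOLC1 with the snoRNP assembly factors, and DKC1 is both a snoRNP core protein and among the other coding hosts. The lists are therefore not separate sets of genes. As another class of noncoding hosts, microRNA host transcripts rose in 10 and fell in 4 of 23 cases in MOLM13, with 4 and 6 of 23 in OCIAML5 after PSPC1 knockdown and 7 and 3 of 24 after PU.1 knockdown. In OCIAML5 none of these shares exceeded that of all genes tested, of which 27.5% rose and 28.4% fell after PSPC1 knockdown. After PU.1 knockdown 29.6% of all genes tested rose and 30.9% fell. MIR34AHG was at 25.9 and 27.5 CPM against 65.4 and 66.9 CPM in MOLM13.

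**Figure D4:**
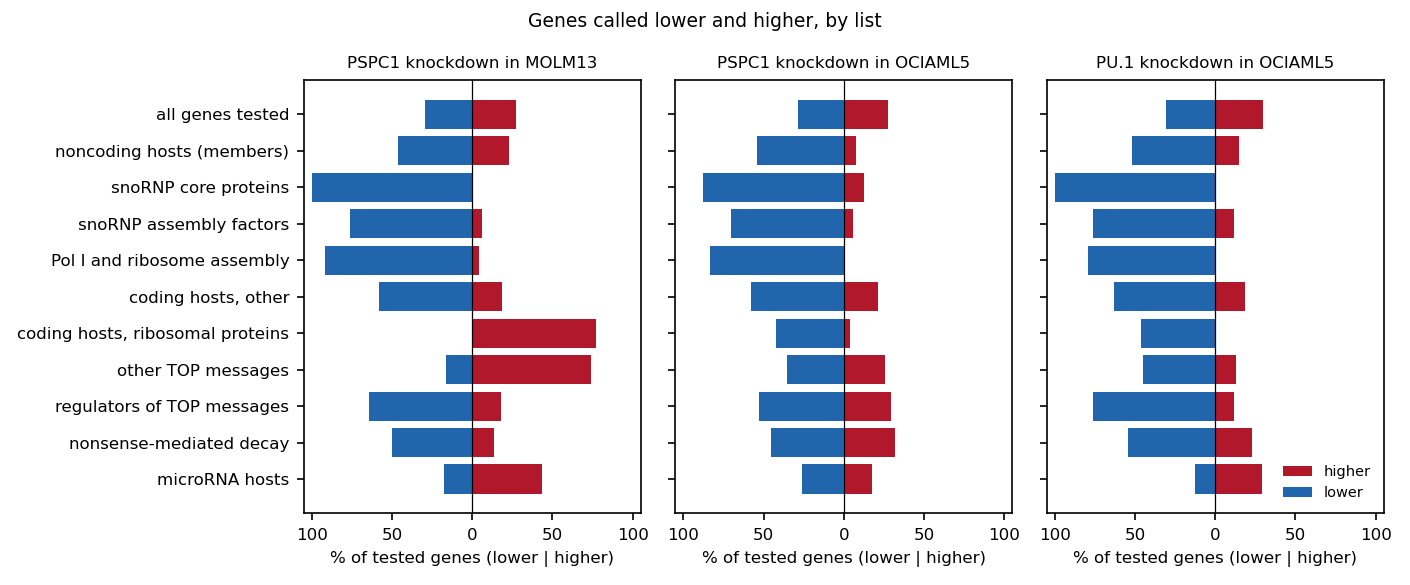
Percent of tested genes called higher (red, right of 0) and lower (blue, left of 0) at an adjusted p of at most 0.05, for all genes, for the noncoding snoRNA hosts and for 9 further lists, in the 3 knockdowns. The noncoding hosts have 12, 14 and 14 lower and 6, 2 and 4 higher; ribosomal protein hosts have 20 higher of 26 after PSPC1 knockdown in MOLM13 and 11 and 12 lower in OCIAML5.

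The mature snoRNAs were hardly counted in these messenger RNA libraries. Of the 147 annotated inside the host genes, 133 have a row of their own, and 10 of these reached 10 counts over the 12 libraries. All 133 together held 2049 counts, against 494803 for the host transcripts. SNORA73B, inside SNHG3, was among the 7 snoRNA rows that fell after PU.1 knockdown, at 2.79 and 3.1 CPM against 1.38 and 1.98 CPM (-0.79 ± 0.27, adjusted p = 0.0079), at levels of a few CPM. Over all 453 snoRNA and scaRNA rows, 22 were tested for PSPC1 knockdown, where 1 rose and 3 fell in MOLM13 and 1 rose and 2 fell in OCIAML5, and 45 for PU.1 knockdown, where 7 fell and none rose. Among all genes tested, 30.9% fell after PU.1 knockdown. SNORD17 was lower in all 3 knockdowns. Whether mature snoRNA levels followed their hosts was not measured by these libraries.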

How the data were processed

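RNA was sequenced from 12 libraries of MOLM13 and OCIAML5 cells, per the labels with a stranded mRNA kit. The deposited values are raw counts per gene in 1 table of 8 libraries (PSPC1 experiment) and 1 of 4 (PU.1 experiment). The submitters' processing notes name GRCh38, HTSeq 2.0.2, STAR 2.7.10a, DESeq2 1.36.0 and Trim Galore 0.6.7. Not given in the sources used here are their roles, the gene annotation and whether counting used strand.

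Counts were fitted in R 4.3.3 with edgeR 4.0.16 (filterByExpr, TMM scaling, quasi-likelihood F tests), the PSPC1 table as 1 model of 4 groups, the PU.1 table as 1 of 2 groups, and the 8 OCIAML5 libraries joined for the comparisons across experiments, for 7 comparisons in all. Adjustment was by Benjamini and Hochberg's method over all genes tested (16457, 16861 and 17159 in the 3 fits), with a threshold of 0.05. CPM use the TMM-scaled library sizes of a table, and values on the joined scale are named as such. The biological coefficient of variation was 4.73%, 4.08% and 4.5%, with 4, 2 and 4 residual degrees of freedom. Between the libraries of a group, chi-square per gene was 2.61 to 4.96, so no pair agreed within sampling noise. Same-numbered libraries did not deviate together (correlation over genes 0.028, -0.021 and -0.072 in the 3 knockdowns in turn), and the numbers were not used as pairs.

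Host transcripts and lists were chosen with earlier results of these data known. Named were host transcripts whose mean reached 5 CPM in some group, PSPC1, SPI1 and MYC, up to 3 genes a list and knockdown with the smallest adjusted p, marker genes, and genes that overlap a named host or start within 1000 bases of it. SNHG30 and SNHG31 were named after their values were seen. Positions, exon lengths and starts are from GENCODE 29, hosted snoRNAs and promoters from RefSeq (GRCh38.p14), matched by symbol. GENCODE 29 lists SNHG29 and SNHG32 under older symbols, and SNHG32 as protein-coding. The fits were tested on simulated data with 50 changed genes per size of change. Log2 changes of 0.3 were recovered in 40%, 38% and 64% for the 3 knockdowns in turn, and in 18% for the line difference. Changes of 1 were recovered in 100% for each knockdown and in 86% for the line difference. Small changes can therefore go without a call. Plots were drawn with Python 3.11.15 and matplotlib 3.10.9. Alternatives were DESeq2 1.42.0, other size factors and filters, a replicate block, a threshold of 0.01, the 4 libraries of a line alone, and leaving out each library.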

Additional observations from a re-analysis of the deposited data

Results flagged for a closer look

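The effect of PSPC1 knockdown differed between the lines, by the test of the difference itself, for 12 host transcripts, given here as the log2 fold change in OCIAML5 minus that in MOLM13. It was lower in OCIAML5 for SNHG32 (-1.12), EPB41L4A-AS1 (-0.84), SNHG8 (-0.62), SNHG26 (-0.50), ZFAS1 (-0.45), SNHG29 (-0.42), SNHG6 (-0.37) and GAS5 (-0.20). It was higher in OCIAML5 for SNHG30 (1.5), SNHG7 (0.63), SNHG12 (0.45) and SNHG3 (0.28). SNHG32, EPB41L4A-AS1, SNHG8, SNHG29, SNHG6 and SNHG7 kept this call under all 15 alternatives run. GAS5 kept it under 9 of the 15, ZFAS1 under 9, SNHG26 under 6, SNHG12 under 11 and SNHG3 under 12. SNHG30, the host of 1 snoRNA on chromosome 17, is below 5 CPM: it was at 2.79 and 4.66 CPM against 2.11 and 1.7 CPM in MOLM13 and at 3.1 and 3.16 CPM against 4.43 and 4.78 CPM in OCIAML5.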

How the results depend on the processing

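No direction of a called value reversed under an alternative. Counts that moved by more than 1.5 times were few. After PSPC1 knockdown in OCIAML5 the higher host transcripts were 1 instead of 2 at an adjusted p of 0.01, with DESeq2 and with the 4 libraries of the line alone, and 1 to 2 when single libraries were left out. After PU.1 knockdown they were 7 instead of 4 by library size alone. For the difference between the lines, a threshold of 0.01 left 2 higher and 5 lower instead of 4 and 8, and leaving out single libraries gave 2 to 5 and 5 to 8. For the PU.1 effect minus the PSPC1 effect, leaving out single libraries gave 3 to 5 lower. Between the OCIAML5 controls, the higher host transcripts were 3 at a threshold of 0.01, 4 with DESeq2 and 2 to 8 without single libraries, instead of 8, and without a low-count filter 2087 genes were lower instead of 3250. The cause was not tested.

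With the replicate number as a block, 152 of 154 values of named host transcripts kept their side of the threshold and 2 lost it, SNHG16 between the lines' controls (adjusted p = 0.054) and SNHG8 between the OCIAML5 controls (adjusted p = 0.055). The replicate block gave 12 lower and 6 higher host transcripts after PSPC1 knockdown in MOLM13, 14 and 2 in OCIAML5, and 15 and 4 after PU.1 knockdown.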
